A study of Mus musculus with 9 samples.

Results

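Zfp36, Zfp36l1, Zfp36l2, Btg1, Btg2, Btg3, Tob1 and Tob2 encode the Zfp36 and Btg/Tob proteins, which bring messenger RNAs to the machinery that removes their poly(A) tails. These 8 genes were chosen by symbol with earlier results of the same arrays known. Which single values led to the choice is not recorded, so every difference of the 8 genes is given as a description with no p-value. Of the 18193 genes with a probe set of their own on the array, 7 of the 8 were among them, with 18 probe sets in all. The platform annotation assigns 1 probe set to Zfp36, 2 each to Zfp36l1, Btg2 and Tob1, 3 each to Zfp36l2 and Btg1 and 5 to Tob2. Its only probe set for Btg3 is shared with Gm7334, a transcribed pseudogene in the RefSeq table, and is given apart from the others.

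The series holds 9 arrays, 3 for each of 3 cell types. VSEL (very small embryonic-like stem cells, CD45-negative) and HSC (the haematopoietic stem cell gate, CD45-positive) were sorted as Sca-1-positive, lineage-negative cells from the bone marrow of C57BL/6 mice at 4 weeks of age. ESC is ESC-D3, a single line of embryonic stem cells of strain 129S2/SvPas, kept on 0.1% gelatin with 10 ng/ml of leukaemia inhibitory factor. Each library was made from 20 sorted cells, lysed directly and amplified by PCR before labelling. The labels name no engineered allele and no drug treatment. The labels do not tell whether libraries of a group came from different animals or dishes, so all errors here are spread between libraries and may be technical. VSEL arrays 2 and 3 correlated at 0.989 across probe sets, and only 1 probe set differed between them by more than 4-fold, against 1565 to 4232 in every other pair of a group. They were averaged and counted as 1 library, VSEL 2+3, which leaves 2 VSEL, 3 HSC and 3 ESC libraries.

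The gates were set against marker genes. Ptprc, which encodes CD45, lay between 13.40 and 13.68 on the HSC arrays, against 3.24 to 3.59 for VSEL and 2.94 to 3.17 for ESC. Pou5f1, a core gene of pluripotency, lay between 12.90 and 13.20 on the ESC arrays, against 9.68 to 10.21 for VSEL and 3.27 to 3.96 for HSC. Nanog, another such gene, lay between 11.60 and 11.95 in ESC, against 8.51 to 9.03 for VSEL and 3.46 to 3.595 for HSC. Kit, a receptor of blood stem and progenitor cells, lay at 7.57 to 8.96 in HSC and was lower there than in ESC, at 9.47 to 10.37. Of 10 measured stem and progenitor markers, 3 to 5 lay below the dim level on each HSC array, while none of the 12 measured T and NK cell markers did. More of the 10 stem and progenitor markers were dim elsewhere, 7 to 8 on each VSEL array and 5 to 6 on each ESC array. The label HSC is used for the gate, whose libraries held strong T and NK cell signal. Granulocyte and monocyte markers were also high, with medians of 13.27 to 13.74 over the HSC arrays and 12.29 to 14.41 over the VSEL arrays. The label VSEL likewise names a gate. Ly6a, which encodes the Sca-1 antigen of both gates, had no probe set of its own and was not read.

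Zfp36 proteins bind AU-rich stretches in messenger RNAs through a pair of zinc fingers and recruit the CCR4-NOT deadenylase. Btg and Tob proteins have a shared domain that binds the catalytic subunits Cnot7 and Cnot8 of the same complex, and several of them also contact the poly(A)-binding protein. In blood cells these genes are known for fast induction after stimulation, for limiting cytokine messages and for holding lymphocytes and stem cells in a resting state. The p38 kinase and its substrate kinase MK2 phosphorylate Zfp36, which lets 14-3-3 proteins bind it and weakens its action.

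Zfp36, Btg1 and Btg2 had the same order of cell types in their brightest probe sets, and their promoters are printed to show the sequence ahead of each gene. Sequences are from RefSeq, build GRCm38.p6, and 7 of the 8 genes matched the promoter table, Zfp36l2 being the other. Each run covers the 250 bases before the annotated start, 5′ to 3′ on the strand of the gene, with motif matches in capitals. Zfp36 is at chr7:28379229-28379478 on the minus strand, Btg2 at chr1:134079156-134079405 on the minus strand and Btg1 at chr10:96616751-96617000 on the plus strand.
Zfp36: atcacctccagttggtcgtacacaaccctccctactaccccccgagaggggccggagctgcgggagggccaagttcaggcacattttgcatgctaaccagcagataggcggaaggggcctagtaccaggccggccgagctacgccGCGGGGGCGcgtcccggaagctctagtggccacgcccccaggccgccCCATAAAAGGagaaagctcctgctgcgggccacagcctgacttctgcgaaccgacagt
Btg2: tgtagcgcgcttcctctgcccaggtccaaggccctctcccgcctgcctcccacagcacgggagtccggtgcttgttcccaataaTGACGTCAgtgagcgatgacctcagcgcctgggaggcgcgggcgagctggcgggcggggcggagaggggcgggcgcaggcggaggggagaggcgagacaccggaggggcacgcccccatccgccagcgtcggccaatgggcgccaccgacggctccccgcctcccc
Btg1: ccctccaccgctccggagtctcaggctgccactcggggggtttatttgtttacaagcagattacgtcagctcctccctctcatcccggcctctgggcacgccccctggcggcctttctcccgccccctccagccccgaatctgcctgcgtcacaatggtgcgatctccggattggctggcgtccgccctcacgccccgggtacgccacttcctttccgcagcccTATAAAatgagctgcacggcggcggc
The motifs, selected after the levels were known, were searched on both strands: the cyclic AMP response element (TGACGTCA), the AP-1 site (TGANTCA), the CArG box of serum response factor, the Egr site (GCGGGGGCG), the TATA box (TATAAA) and the E-box (CACGTG). Zfp36 held a CArG box 58 to 49 bases before the start and an Egr site 105 to 97 bases before it. Btg2 held a cyclic AMP response element 166 to 159 bases before the start, and Btg1 a TATA box 26 to 21 bases before it. No matches overlapped. Among 32851 promoter windows of this length, 1.47% held a CArG box, 2.57% the Egr site, 1.55% the cyclic AMP response element, 6.75% the AP-1 site, 12.4% the TATA box and 6.02% the E-box. Zfp36l1 and Tob1 held a TATA box and Zfp36l1 an AP-1 site, while the Tob2 and Btg3 windows held none of these letters. The G and C content was 64.8% for Zfp36, 73.2% for Btg2 and 65.2% for Btg1, where the median window had 52.4%. A match describes the sequence only, since no binding was measured here.

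All values are log2 RMA values of a probe set, and groups are mean ± SD over libraries. Levels of different probe sets cannot be set against each other, so each is compared across cell types only. The dim level is the 95th percentile of 84 probe sets for olfactory, vomeronasal, taste and trace amine receptors, genes that these cells are not known for. It ranged from 6.18 to 6.51 over the VSEL arrays and was lower for the others, with 5.57 to 5.82 for HSC and 5.65 to 5.78 for ESC. A probe set was called where limma gave an adjusted p below 0.05 in a fit over all 45037 probe sets other than controls. For the Zfp36 and Btg/Tob genes, chosen with results known, a call only marks that this threshold was passed. It is not read as a test of them. Because each library is a bulk of 20 cells, fewer cells of a type and less RNA per cell cannot be told apart.

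The brightest probe sets of Zfp36, Zfp36l2, Btg1 and Btg2 shared one order, lowest in ESC, between in VSEL and highest in HSC, with no overlap between libraries. Of all 18193 genes read from their brightest probe set, 345 (1.90%) had this complete order. Zfp36l1 and Tob1 were higher in HSC than in ESC, but the VSEL libraries stood far apart. Tob2 was high in HSC alone, with both VSEL libraries and all ESC libraries well below.

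**Figure D1:**
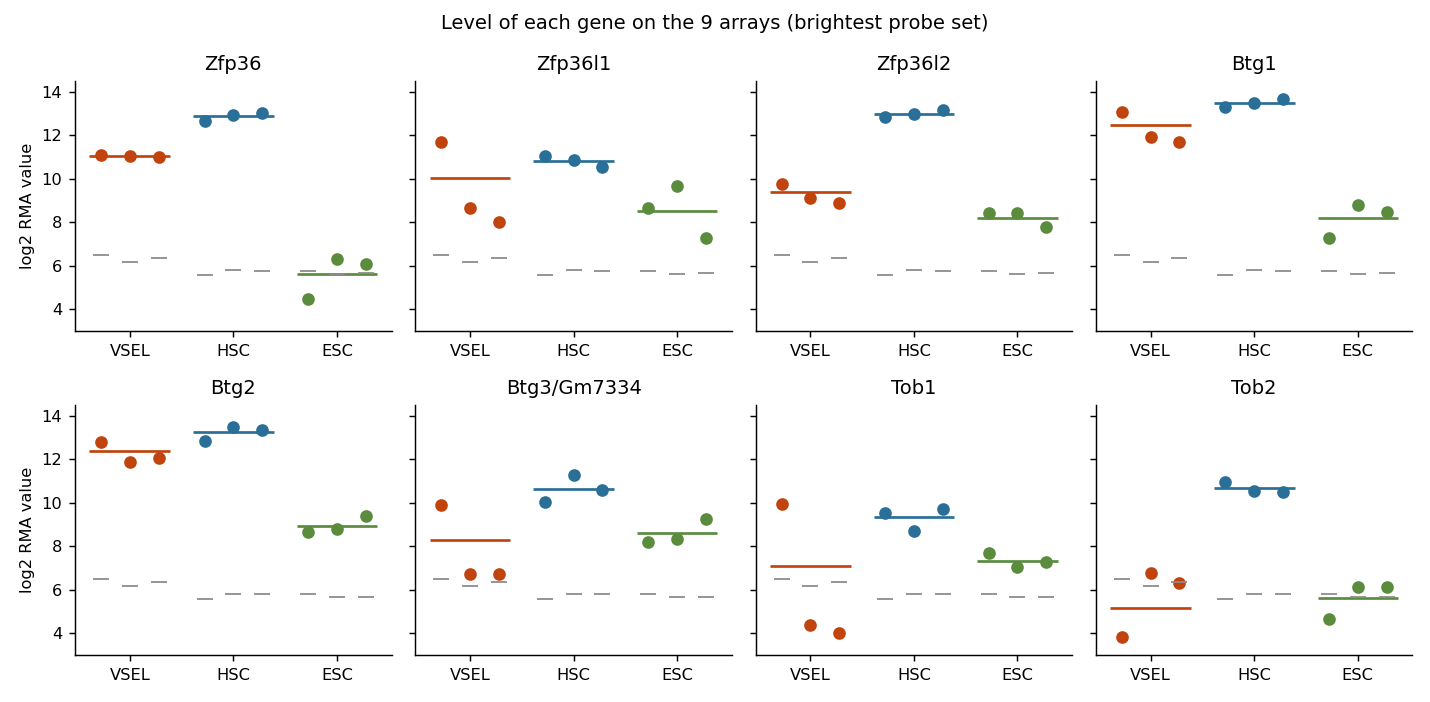
Log2 RMA value (y axis) of the brightest probe set of each gene on the 3 arrays each of VSEL, HSC and ESC (x axis); points are arrays, horizontal lines are group means with VSEL arrays 2 and 3 counted once, the panel Btg3/Gm7334 is the shared probe set, and grey ticks mark the dim level of each array. Zfp36, Zfp36l2, Btg1 and Btg2 step down from HSC through VSEL to ESC, while in Tob1 the first VSEL array (9.94) lies just above the HSC arrays (8.71 to 9.71) and the other VSEL arrays (4.37 and 4.02) below the dim level.

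Zfp36, the founding member of the AU-rich element binders, had 1 probe set. It read 11.08 on VSEL array 1, 11.06 on array 2 and 11.001 on array 3. On the HSC arrays it read 12.64, 12.95 and 13.03, and on the ESC arrays 4.50, 6.34 and 6.08. The VSEL arrays were nearly level with each other, all HSC arrays lay above them, and ESC array 1 was the only one below its dim level. The group values were 11.05 ± 0.034 in VSEL, 12.88 ± 0.21 in HSC and 5.64 ± 0.995 in ESC. VSEL lay 1.82 below HSC (SE 0.53, 3.54-fold) and 5.41 above ESC (SE 0.53), and HSC lay 7.24 above ESC (SE 0.47). No fold is given against ESC, since ESC 1 was below its dim level. Both VSEL libraries lay between the other cell types, 1.80 and 1.85 below the HSC mean and 5.44 and 5.39 above the ESC mean. Over 17 other settings the difference of VSEL from HSC ranged from -1.98 to -1.36. Among these settings, the fits with 9 arrays kept separate count the nearly identical VSEL arrays 2 and 3 as separate libraries. The ESC values stood near the dim level, so the differences from ESC can understate the ratio. The low value of ESC 1 also enlarges them: without ESC 1 they were 4.84 for VSEL and 6.67 for HSC.

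Zfp36l2, a family member known for a role in blood stem cells and lymphocytes, had the widest gap between VSEL and HSC in this family. Its brightest probe set read 9.75, 9.14 and 8.91 on VSEL arrays 1, 2 and 3, 12.84, 12.99 and 13.15 on the HSC arrays and 8.44, 8.44 and 7.77 on the ESC arrays. VSEL thus lay close to ESC and far below HSC, without overlap in either case. VSEL was 3.61 below HSC (SE 0.30, 12.2-fold) and 1.17 above ESC (SE 0.30, 2.25-fold), and HSC was 4.78 above ESC (SE 0.27, 27.5-fold). Over 17 other settings the VSEL difference ranged from 0.81 to 1.91 against ESC and from -3.97 to -3.17 against HSC. The other probe sets of Zfp36l2 moved little: their VSEL means were 7.15 and 6.80, their HSC means 6.86 and 6.37 and their ESC means 6.72 and 6.16. VSEL lay above HSC in both of these, by 0.29 and 0.43, opposite to the brightest probe set. The difference of 0.29 lay near 0.21, the median difference over all probe sets in VSEL against HSC, and that of 0.43 lay above it.

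Zfp36l1, also an AU-rich element binder, differed between the VSEL libraries. Its brightest probe set read 11.72 on VSEL array 1 but 8.67 and 8.03 on arrays 2 and 3. The HSC arrays read 11.04, 10.89 and 10.54, and the ESC arrays 8.64, 9.70 and 7.29. VSEL 1 was the highest of all libraries and VSEL 2+3 lay within the ESC range, so VSEL overlapped both other cell types. The VSEL mean was 10.03 ± 2.38, against 10.82 ± 0.26 in HSC and 8.54 ± 1.20 in ESC. HSC lay 2.28 above ESC (SE 0.96) with no overlap. The sign of its VSEL difference was set by single libraries: against HSC it was 0.90 with VSEL 1 alone and -2.47 with VSEL 2+3 alone, and against ESC 3.18 and -0.19. The other probe set lay below the dim level in every library.

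Btg1, an antiproliferative gene abundant in resting lymphocytes, read 13.10, 11.92 and 11.72 on the VSEL arrays in its brightest probe set. The HSC arrays read 13.30, 13.48 and 13.65, and the ESC arrays 7.29, 8.82 and 8.50. VSEL came close to HSC and lay far above ESC. The differences were -1.02 against HSC (SE 0.54), 4.26 against ESC (SE 0.54, 19.1-fold) and 5.28 for HSC against ESC (SE 0.49, 38.8-fold). A further probe set of Btg1 gave nearly the same values, -0.84, 4.33 and 5.18. The last one differed: it read 8.57, 9.63 and 9.16 in HSC, but 3.76 and 4.02 in the VSEL libraries and 3.48 to 3.76 on the ESC arrays. On it HSC was at least 6.65-fold above VSEL and at least 10.7-fold above ESC, with both of those cell types below their dim level. VSEL thus resembled HSC on 2 probe sets of Btg1 and ESC on the remaining one. Which transcripts each probe set reads was not examined.

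Btg2, the founding Btg gene and a target of p53, followed Btg1 closely. Its brightest probe set read 12.78, 11.87 and 12.05 in VSEL. It read 12.85, 13.50 and 13.34 in HSC, against 8.64, 8.80 and 9.37 in ESC. VSEL 1 at 12.78 came close to the lowest HSC array at 12.85 without overlap, and all bone marrow libraries lay above all ESC libraries. The differences were -0.86 against HSC (SE 0.35), 3.43 against ESC (SE 0.35, 10.8-fold) and 4.29 for HSC against ESC (SE 0.31, 19.6-fold). The other probe set was below the dim level in all VSEL and ESC libraries and in 1 of 3 HSC libraries, where it spread from 5.32 to 8.62. The probe set shared by Btg3 and Gm7334 read 9.87, 6.74 and 6.71 in VSEL, 10.02, 11.28 and 10.60 in HSC and 8.21, 8.34 and 9.23 in ESC. VSEL lay below HSC in both libraries there, and the pair of genes cannot be separated.

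Tob1, which joins the deadenylase to the poly(A)-binding protein, showed the widest split between VSEL libraries of the 7 genes. It read 9.94 on VSEL array 1 and 4.37 and 4.02 on arrays 2 and 3, against 9.54, 8.71 and 9.71 in HSC and 7.67, 7.05 and 7.28 in ESC. VSEL 1 lay above every HSC array, while VSEL 2+3 lay below the dim level and below every ESC array. The gap of 5.74 between the VSEL libraries was exceeded by few genes: 458 of 18193 (2.52%) had a gap over 5. HSC lay above ESC by 1.98 (SE 1.35) without overlap. Leaving out either VSEL library leaves that group with 1 library, so only the differences are given. With VSEL 1 left out, VSEL was 5.12 below HSC and 3.14 below ESC. With VSEL 2+3 left out, VSEL was 0.62 above HSC and 2.60 above ESC. The other probe set of Tob1 read 3.55 to 4.20 everywhere and was below the dim level in every library.

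Tob2, the close relative of Tob1, stood out in HSC. Its brightest probe set read 10.96, 10.52 and 10.48 in HSC, 3.80, 6.78 and 6.33 on VSEL arrays 1, 2 and 3 and 4.66, 6.12 and 6.10 in ESC. The HSC arrays lay more than 3 log2 units above every other array, and VSEL and ESC overlapped near the dim level. HSC was 5.02 above ESC (SE 0.75) and VSEL 5.48 below HSC (SE 0.84). VSEL 1 and ESC 1 were below their dim level, so no fold is given. The VSEL difference was -6.85 for VSEL 1 and -4.10 for VSEL 2+3. Over 17 other settings the difference of VSEL from HSC did not go beyond these values. VSEL 1 was here the lower library, 2.75 below VSEL 2+3, the opposite of Tob1 and Zfp36l1. Another probe set gave the same picture (-4.89 for VSEL against HSC), and a further one a smaller difference of -1.40 (SE 0.17). Like the brightest, the former of these carries a suffix that Affymetrix gives to sets able to match more than one transcript. The remaining probe sets placed VSEL 0.53 and 0.45 above HSC, at 7.02 and 6.61 against 6.49 and 6.17.

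**Figure D2:**
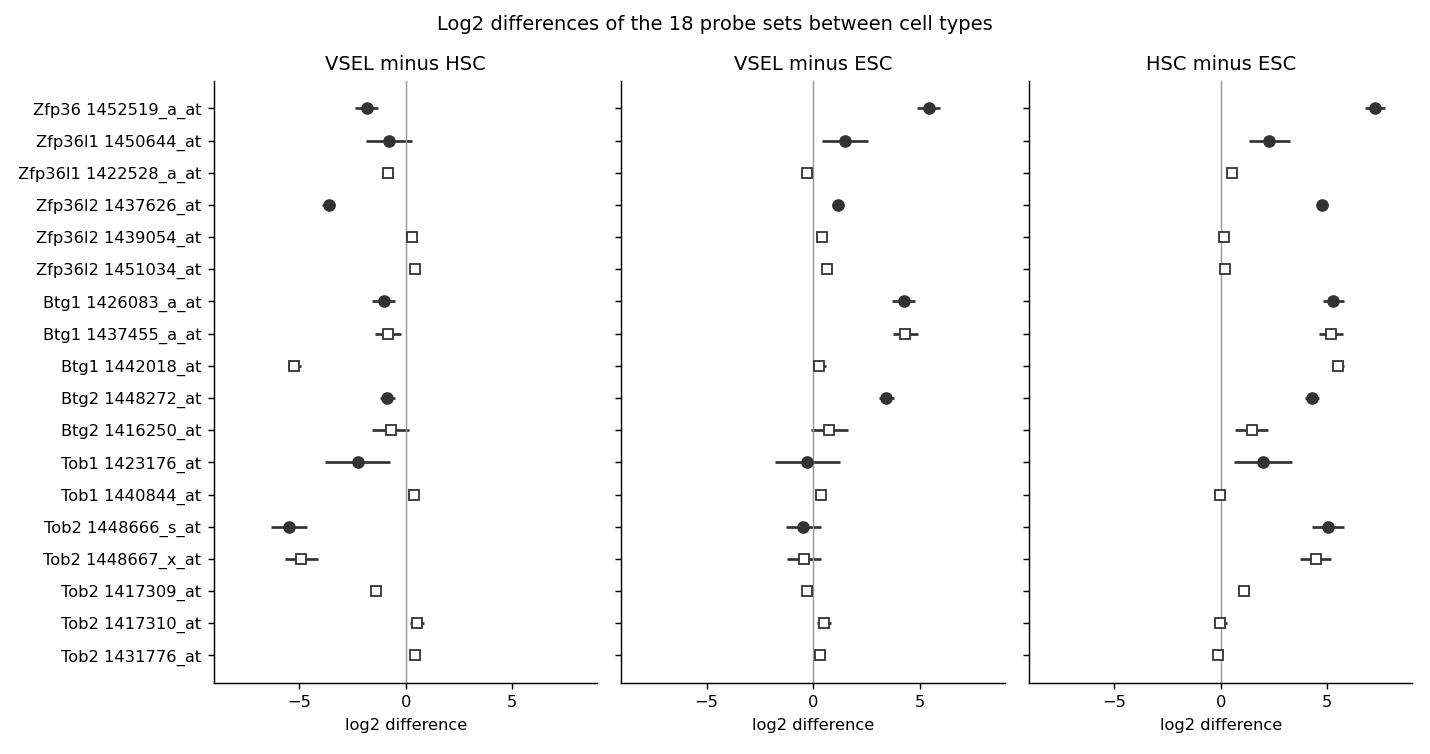
Log2 difference (x axis) of each of the 18 probe sets (y axis) in VSEL minus HSC, VSEL minus ESC and HSC minus ESC, with bars of 1 SE from the fit; filled circles are the brightest probe set of a gene and open squares the others. In HSC minus ESC the brightest probe sets lie between 1.98 and 7.24, while several open squares of Zfp36l2, Tob1 and Tob2 lie near 0.

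The 3 comparisons share groups, so their values are set side by side and none is independent of the others. Between HSC and ESC, all 7 genes had every HSC library above every ESC library in the brightest probe set, as did 16.5% of all genes. Of these 7, 5 were called higher and none lower, against 6.3% called higher and 8.86% called lower of all genes. Over the 18 probe sets, 9 were called higher and none lower, where 4.42% of all probe sets were called higher and 6.21% lower. The median difference of the 7 genes was 4.78 and that of all genes -0.04. The 3′ minus 5′ signal of the Gapdh and actin control probe sets, which grows as cDNA gets shorter, also differed, with 0.73 to 0.96 for HSC and 0.34 to 0.45 for ESC. Its part in these differences was not tested.

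Between VSEL and HSC, 2 of the 7 genes were called lower in VSEL (Zfp36l2 and Tob2) and none higher, against 8.86% of all genes lower and 9.36% higher. Over the 18 probe sets, 5 were called lower and none higher, where 6.19% of all probe sets were lower and 8.0% higher. Both VSEL libraries lay below all HSC libraries for 5 of the 7 genes, as did 17.3% of all genes. The median difference was -1.82 over the 7 genes and 0.22 over all genes. Between VSEL and ESC, 4 of the 7 were called higher in VSEL (Zfp36, Zfp36l2, Btg1 and Btg2) and none lower, against 7.65% of all genes higher and 10.2% lower. Over the 18 probe sets, 6 were called higher and none lower, where 7.13% of all probe sets were higher and 6.93% lower. The median difference was 1.49 over the 7 genes and 0.12 over all genes. The genes were chosen with such values in view, and nothing is read from these counts.

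The VSEL libraries were then taken singly. For Zfp36, Zfp36l2, Btg1 and Btg2 both lay on the same side of HSC and of ESC, with gaps of 0.048, 0.72, 1.28 and 0.82 between them. For Zfp36l1, Tob1 and Tob2 the gaps were 3.37, 5.74 and 2.75. In Tob2, VSEL 1 at 3.80 lay below its dim level of 6.51 and VSEL 2+3 at 6.55 lay near its own of 6.27. In Tob1, VSEL 2+3 was below its dim level. The sizes of these gaps are therefore uncertain. Gaps over 2 were found in 3 of the 7 genes and in 14.2% of all genes. VSEL 1 was the upper library for all but Tob2. Blood lineage markers differed between the same libraries. The summed linear signal of granulocyte and monocyte markers was 69110 on VSEL array 1, 203624 on array 2 and 206948 on array 3. That of B lineage markers was 30333, 14039 and 15362, and that of erythroid markers 56892, 18425 and 17881. VSEL 1 was thus low in the former and high in the other sums. Its 3′ minus 5′ control signal was 1.07, against 0.75 and 0.71 on arrays 2 and 3. The part of such cells or of RNA quality in the split of Zfp36l1, Tob1 and Tob2 was not tested.

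**Figure D3:**
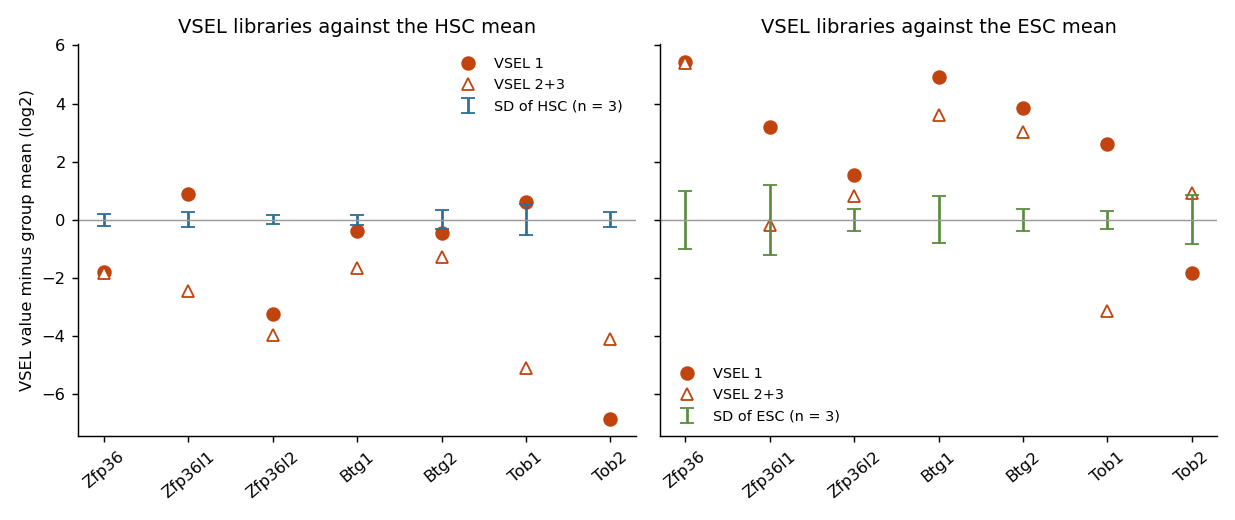
VSEL 1 (filled circles) and VSEL 2+3 (open triangles) minus the mean of HSC (left) or ESC (right), in log2 units on the y axis, for the brightest probe set of 7 genes on the x axis; bars at 0 are the SD of the 3 HSC or ESC libraries. The libraries coincide for Zfp36 (-1.80 and -1.85 from HSC) and stand on opposite sides of both means for Tob1 (0.62 and -5.12 from HSC, 2.60 and -3.14 from ESC).

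Immediate early genes, which cells switch on within minutes of a stimulus such as sorting, moved in the same direction as these genes in both comparisons with HSC, but not in VSEL against ESC. Of 16 measured, 11 fell in VSEL against HSC and none rose, and 12 rose in HSC against ESC and none fell. In VSEL against ESC, 2 rose and 2 fell. Their summed linear signal ran from 101923 to 135997 over the HSC arrays, against 9329 to 18292 for VSEL and 7892 to 9049 for ESC. Fos, 1 of the 16, ran from 14.01 to 14.47 over the HSC arrays, against 7.02 to 7.71 for VSEL and 8.60 to 9.65 for ESC. The median difference of the 16 in VSEL against ESC was 0.14. T and NK cell markers, measured for 12 of 13 genes, fell in VSEL against HSC for 11 and rose in HSC against ESC for all 12, while 1 rose in VSEL against ESC. Their sum ran from 29302 to 48548 over the HSC arrays, against 480 to 3113 for VSEL and 356 to 391 for ESC, and 10 to 11 of the 12 lay below the dim level on each VSEL array. Granulocyte and monocyte markers summed to 114876 to 130775 in HSC, inside the VSEL range, and to 455 to 705 in ESC. In their sums, pan-leukocyte markers had the order of Zfp36, Zfp36l2, Btg1 and Btg2. The sums were 51016 to 52294 for HSC, 9593 to 19276 for VSEL and 390 to 514 for ESC. On each VSEL array 2 to 3 of the 5 genes lay below the dim level, and on each ESC array 3, Ptprc among them in both. Of these 5 genes, 4 fell in VSEL against HSC, 2 rose in VSEL against ESC and 5 rose in HSC against ESC. B lineage and erythroid markers were highest in VSEL, where 6 of 8 and 6 of 7 rose against ESC. The B lineage sum was 14039 to 30333 for VSEL, 2436 to 12655 for HSC and 236 to 420 for ESC. The erythroid sum was 17881 to 56892, 1578 to 3424 and 304 to 402 in the same order. The part of stimulation during sorting, or of leukocytes, T, NK, myeloid, B or erythroid cells, in the levels of the Zfp36 and Btg/Tob genes was not tested.

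**Figure D4:**
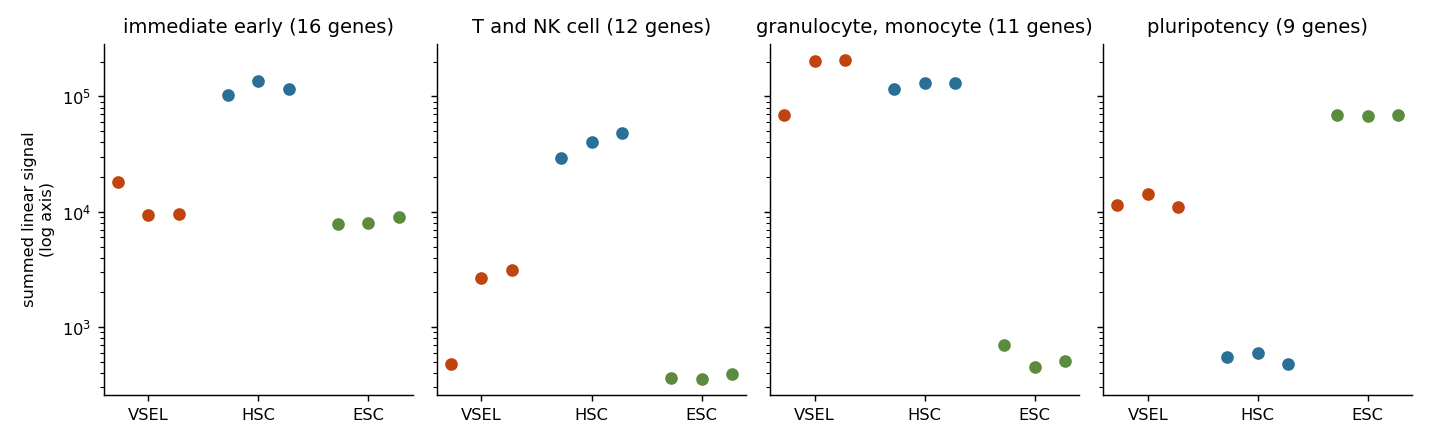
Summed linear signal (y axis, log scale) of 4 marker lists on the 3 arrays each of VSEL, HSC and ESC, 1 point per array. Immediate early genes (16 measured) and T and NK cell markers (12 measured) are highest in HSC, and granulocyte and monocyte markers are high in VSEL and HSC alike. Pluripotency markers are highest in ESC (67857 to 69288), lower in VSEL (11060 to 14375) and lowest in HSC (477 to 598).

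For each gene, the 3 genes with the closest profile over the 8 libraries were found, by the mean absolute log2 difference after centring each profile on its mean. Nearest to Zfp36 were Rgs2, a regulator of G protein signalling (0.39), Tbc1d10c (0.48) and Ier5, an immediate early gene (0.52). Nearest to Zfp36l2 were Baiap3 (0.24), the T cell receptor segment Trav9d-3 (0.26) and Gzmb, which encodes a granule protease of cytotoxic cells (0.27). Nearest to Btg1 were Cd82 (0.30), the MHC class I gene H2-D1 (0.31) and Pik3cd, a lipid kinase gene of leukocytes (0.38). Nearest to Btg2 were the MHC class I gene H2-K1 (0.31), Ifi27 (0.32) and Smap2 (0.33). Nearest to Tob1 were Malat1, a nuclear long non-coding RNA (0.31), Nrbp1 (0.38) and Phf12 (0.40). Zfp36l1 lay nearest to Adssl1 (0.24), Abca3 (0.39) and Cmtr1 (0.40). Tob2 lay nearest to Mcur1 (0.589), Igkv6-14 (0.592) and Cd6 (0.603), which were almost equally close. Among the 7 genes themselves, Btg1 and Btg2 were closest to each other (0.48).

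The partners and targets of these proteins were read from 7 lists, 95 genes in all with 92 measured, each from its brightest probe set. Over all lists, 18 fell and 2 rose in VSEL against HSC, 14 fell and 5 rose in VSEL against ESC, and 11 rose and 7 fell in HSC against ESC. As shares these were 19.6% lower and 2.17% higher, 15.2% lower and 5.43% higher, and 12.0% higher and 7.61% lower. The shares of all genes called, for reading these counts, are those given above for each comparison. No list was tested as a set.

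The CCR4-NOT deadenylase, which both protein families recruit, was measured for 11 of 12 genes. In VSEL against HSC 3 fell and none rose, led by Cnot6l, a catalytic subunit, at 4.79 ± 0.32 in VSEL and 8.52 ± 0.73 in HSC (limma, Benjamini-Hochberg adjusted p = 0.00364, at least 4.38-fold). Cnot8, a catalytic subunit bound by Btg and Tob proteins, fell by 1.83 (adjusted p = 0.0493) and Cnot10 fell by 1.33 (adjusted p = 0.0403), calls kept in 4 and 8 of 17 other settings, with adjusted p of 0.0138 to 0.241 and 0.014 to 0.212. Against ESC 4 fell, led by Cnot9 at 7.50 ± 0.18 in VSEL and 9.68 ± 0.21 in ESC (adjusted p = 0.00143). Cnot7, the other subunit that Btg and Tob proteins bind, was at 8.63 ± 2.86 in VSEL, 8.64 ± 1.69 in HSC and 9.54 ± 0.19 in ESC and was not called in any comparison. In HSC against ESC Cnot6l rose by 4.05 (adjusted p = 0.000965) and Cnot9 fell by 2.01 (adjusted p = 0.000382).

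Other deadenylases and poly(A)-binding proteins gave few calls. Of 8 measured, Parn, a nuclear deadenylase, fell by 2.23 in VSEL against HSC (adjusted p = 0.0493, kept in 5 of 17 other settings with adjusted p of 0.0213 to 0.152), and none was called against ESC. Noct fell by 4.37 in HSC against ESC (adjusted p = 0.0497, kept in 7 of 17 with 0.0045 to 0.149). Pabpc1, the main cytoplasmic poly(A)-binding protein gene, was at 14.03 in VSEL, 13.83 in HSC and 14.15 in ESC and was not called. Among 16 measured decapping and 5′ decay genes, 3 fell in VSEL against HSC and 4 against ESC, and none rose. The decapping factor gene Dcp1a fell by 2.00 and 2.33 (adjusted p = 0.0196 and 0.0125), Edc4 by 1.37 and 2.04 (adjusted p = 0.0175 and 0.00507) and Lsm6 by 1.82 and 2.52 (adjusted p = 0.0147 and 0.00524), in that order of comparisons, with the calls against HSC kept in 12, 15 and 15 of 17 other settings. In HSC against ESC only Lsm1 was called, and it fell by 1.72 (adjusted p = 0.0407, kept in 8 of 17 with 0.00249 to 0.119). Of 14 exosome and SKI genes, 2 fell in VSEL against HSC, 5 against ESC and 3 in HSC against ESC. Dis3, the catalytic subunit, was at 7.34 ± 0.17 in VSEL, 7.51 ± 0.046 in HSC and 10.17 ± 0.42 in ESC (adjusted p = 0.00204 for VSEL and 0.000619 for HSC against ESC), and Exosc4 fell by 3.18 and 2.27 (adjusted p = 0.00266 and 0.00288).

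The p38 and MK2 kinases act on Zfp36 itself. Mapk14, which encodes p38 alpha, was at 7.50 ± 0.25 in VSEL, 11.44 ± 0.35 in HSC and 10.36 ± 0.16 in ESC, lowest in VSEL (adjusted p = 0.00035 against HSC and 0.00177 against ESC). Mapkapk2, which encodes MK2, had the same order as Zfp36, with 10.00 ± 0.27 in VSEL, 11.01 ± 0.091 in HSC and 8.15 ± 0.12 in ESC. Its adjusted p was 0.0125 for VSEL against HSC, 0.00186 for VSEL against ESC and 6.69e-05 for HSC against ESC. Ywhaz, a 14-3-3 protein gene, fell by 1.68 in VSEL against HSC (adjusted p = 0.0381, kept in 7 of 17 other settings with 0.0129 to 0.122). The other members of this list, 5 of 8 in VSEL against HSC and 6 of 8 in each other comparison, were not called.

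Of 13 other RNA-binding regulators of stability, Tia1 was at least 4.86-fold lower and Zc3h12a (regnase-1, an RNase of immune messages) at least 2.32-fold lower in VSEL than in HSC (adjusted p = 0.00938 and 0.0168). Elavl1 (HuR), which stabilises AU-rich messages, rose by 1.06 (adjusted p = 0.0454, kept in 8 of 17 other settings with 0.0136 to 0.133). Cpeb4 rose by 5.85 in VSEL against ESC (adjusted p = 0.0234, kept in 11 of 17 with 0.00626 to 0.0786). It was at 10.57 ± 0.56 in VSEL and 4.72 ± 1.76 in ESC. That ESC mean lay below the dim level, though not every ESC library did, so the size of the difference is uncertain. Zc3h12a was at least 3.73-fold higher in HSC than in ESC (adjusted p = 0.00365). Of 22 messages described as bound by Zfp36 proteins, 4 fell and 1 rose in VSEL against HSC, 3 rose in VSEL against ESC, and 7 rose and 1 fell in HSC against ESC. Ifng was at 3.65 ± 0.064 in VSEL, 11.92 ± 0.28 in HSC and 3.28 ± 0.011 in ESC, at least 46.3-fold higher in HSC than in VSEL (adjusted p = 8.33e-06). Ccl3, a chemokine gene, was at least 12.7-fold higher in HSC than in VSEL and at least 20.5-fold higher than in ESC (adjusted p = 0.00214 and 0.000654). Cxcl2 was at least 2.51-fold higher in HSC than in VSEL (adjusted p = 0.0109). Il1b, a cytokine gene, rose by 5.01 in HSC against ESC (adjusted p = 0.0215, kept in 11 of 17 with 0.000308 to 0.0734). Myc, a transcription factor gene of cell growth, was at 10.48 ± 0.093 in VSEL, 10.76 ± 0.87 in HSC and 8.54 ± 0.30 in ESC (adjusted p = 0.0474 for VSEL and 0.0232 for HSC against ESC), and the former call was kept in 9 of 17 other settings, with 0.0165 to 0.13. The calls of Vegfa and Csf2 in VSEL lay below the dim level in both groups and are not given as folds. Of the 22 messages, 13 to 15 were below the dim level on each VSEL array, while 5 to 6 were so for HSC and 10 to 12 for ESC. The dim level was highest on the VSEL arrays, so these counts rest on unlike levels. The median of the 22 was 5.71 to 5.86 over the VSEL arrays, 7.05 to 7.71 for HSC and 5.21 to 5.72 for ESC. Btg4, the germ cell member of the Btg family, read 4.02 to 4.73 on all arrays, below the dim level, and Zfp36l3 had no probe set of its own.

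**Figure D5:**
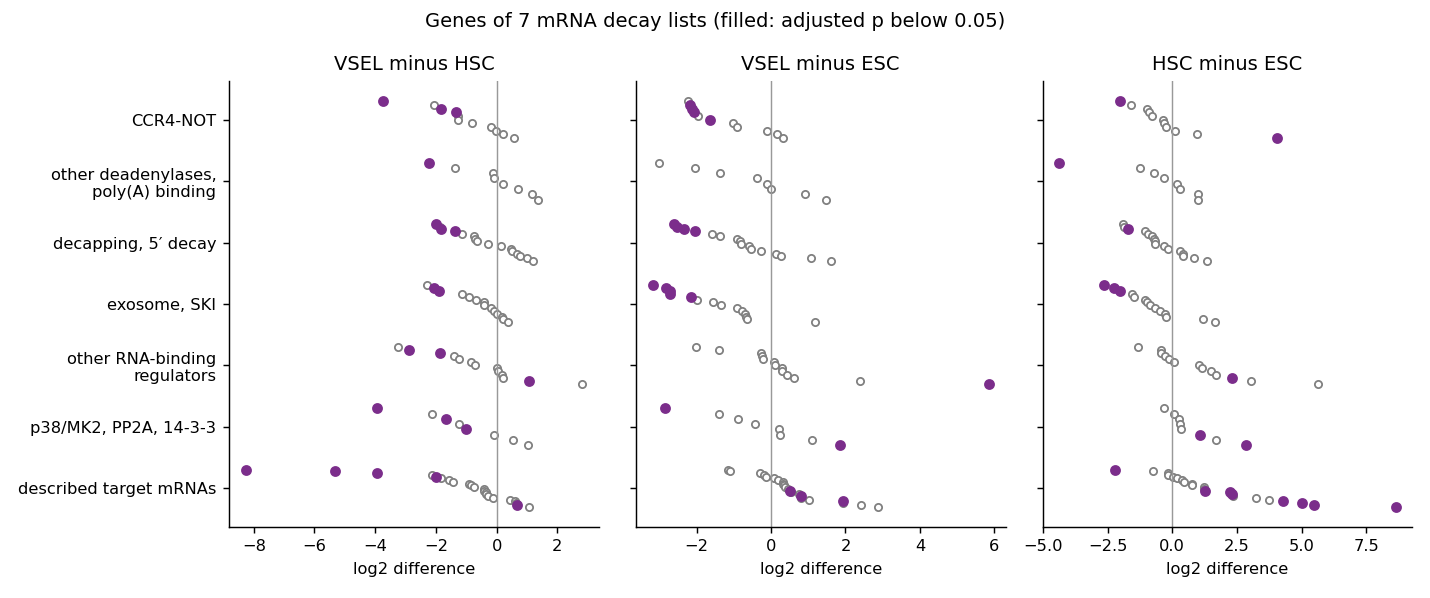
Log2 difference (x axis) of each measured gene in 7 mRNA decay lists (y axis) for the 3 comparisons, 1 point per gene, filled where the adjusted p was below 0.05. Filled points of the CCR4-NOT, decapping and exosome lists lie to the left in both VSEL comparisons (3, 3 and 2 genes against HSC, and 4, 4 and 5 against ESC), and Ifng at -8.27 is the farthest point in VSEL minus HSC.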

How the data were processed

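The deposited table gives log2 expression values per probe set, made by the authors. The submitters' processing notes name RMA and Partek 6.5. Neither the settings nor the arrays normalized together are stated there. RMA compresses low signals, so differences against dim groups can be understated. Values were used as deposited. Of 45101 probe sets, 64 array controls were left out; 34945 of the rest name 1 gene, 932 several and 9160 none, and 34741 symbols were updated through the RefSeq table of GRCm38.p6. The test was limma 3.58.1 under R 4.3.3 (lmFit, eBayes, two-sided) in 1 fit over 8 libraries, with Benjamini-Hochberg adjustment over all 45037 probe sets. The fit had 5 residual degrees of freedom and assumes 1 spread for all cell types. Since the VSEL libraries vary most, errors of VSEL comparisons can be too small. The median of the differences over all probe sets was 0.21 for VSEL against HSC and 0.17 for VSEL against ESC, and 0.10 and 0.05 after quantile normalization. Genes, lists and rules were chosen with earlier results of these data known. All 8 genes are named with every probe set, and per list and comparison at most 3 called genes with the largest differences, Cnot7 and Pabpc1 apart, which were added afterwards as binding partners. Detection calls were not used. Precision rests on the small number of libraries.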

Additional observations from a re-analysis of the deposited data

How the results depend on the processing

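Other settings were 9 arrays kept separate, the same with a replicate block, quantile normalization, cyclic loess, centring on the median, only probe sets above the median, a fit on the compared cell types alone, array weights, 1 row per gene and leaving out each library. The count of the 18 probe sets called in VSEL against HSC was 5, with 8 from 9 separate arrays, 9 after quantile normalization and 6 with the replicate block. Of those, 2 and 3 were higher in VSEL with the separate arrays and quantile normalization, and none in the main setting. Since these genes were chosen with results known, counts of the 18 probe sets are no measure of support for them. With 1 library left out it was 5 to 6; in VSEL against ESC it was 6, and 4 to 7; in HSC against ESC 9, and 9 to 10. For the decay lists, 20 genes were called in VSEL against HSC, with 13 after cyclic loess, 9 in a fit on those cell types alone, 12 with array weights and 14 to 20 with a library left out. In VSEL against ESC 19 were called, 12 with array weights and 12 to 23 with a library left out (12 without ESC 2). In HSC against ESC 18 were called, and 9 to 24 with a library left out (9 without ESC 1 or ESC 2). Of 357 other values for the log2 differences of the 7 genes, 354 moved by less than the larger SD of the groups compared, none of a called difference changed sign, and 9 of uncalled ones did, all in VSEL comparisons of Zfp36l1, Tob1 or Tob2. The 354 are no measure of stability, since leaving out 1 library cannot shift a difference by more than this SD. Leaving out a library of the third cell type, the median filter, 1 row per gene and the fit on the compared types cannot shift it at all. Tob1 in VSEL against HSC went from -2.25 to -5.12 or 0.62 with a VSEL library left out and still counted among the 354. The replicate numbers are not stated to pair the arrays: deviations of same-numbered arrays correlated at -0.092 to 0.16, so no pairing was used. A count of the 18 probe sets is not defined with 1 row per gene.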
